A study of Arabidopsis thaliana with 6 samples.

Results

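Genes whose transcripts were higher at 2 h than at 30 min of renewed light in both the flu mutant and the wild type are described here. They were chosen on the scale log2(signal + 50), where the signal is the brightness of a probe set on the array and the offset of 50 damps the noise of dim values. A probe set was a member if the brightest of its 6 signals reached a limit set near the median of all signals (184.8) and its value at 2 h exceeded that at 30 min by 1 or more, which is 2-fold on this scale, in flu and in Ler. Of 22746 probe sets, 13062 passed the signal limit and 62 were members. Of the 62, 22 carried a single gene name, 2 matched several genes and 38 had no gene in the annotation used, so the account by name covers only the 22. The increase from 30 min to 2 h is what chose the members. It is given as a description with no test, and it supports nothing further.

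The arrays measured total RNA from rosette leaves of Arabidopsis thaliana, ecotype Landsberg erecta (Ler), raised for 3 weeks in continuous light, kept dark for 8 h and then returned to light. The mutant group carried the allele flu1-1 and was sampled 30 min, 60 min and 2 h later. The wild-type group, Ler, was sampled at the same 3 times. Each sample held the leaves of 5 to 6 plants, the RNA pooled that of 2 experiments, and each genotype and time was measured on 1 Affymetrix ATH1 array, 6 arrays in all. No value at a single time therefore has a replicate, the number of arrays limits the precision, and differences between 2 arrays have no test. The earliest arrays are of plants already in the light for 30 min, so none of the increases is a change from darkness. In whole leaves, a change in the make-up of cells and a change in RNA per cell cannot be told apart.

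Light that returns after darkness restarts photosynthesis and sugar supply in leaves, acts through photoreceptors on pigment, flavonoid and growth genes, and resets the circadian clock. In flu plants the same light acts on protochlorophyllide, a chlorophyll precursor. Without FLU function its amount is no longer held back in the dark. This pigment passes energy to oxygen and forms singlet oxygen inside plastids. Many heat shock and chaperone genes are known to respond to proteins damaged by heat or by oxidants. The roles given below are background knowledge of each locus. Where a gene is given by its locus only, the annotation used held no function for it.

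Array quality is summarised once. The 9 probe sets of the RNAs added before hybridisation had a geometric mean signal of 532 on the flu array of 30 min, against 781 to 1217 on the other 5 arrays. The ratio of 3′ to 5′ signal for actin ran from 4.62 to 6.08 on the flu arrays and from 3.38 to 7.05 on the Ler arrays. For GAPDH the same ratio ran from 0.81 to 0.91 on the flu arrays and from 0.87 to 0.99 on the Ler arrays. The median change of all probe sets past the signal limit from 30 min to 2 h was -0.17 in flu and -0.02 in Ler. Of the leaf, guard cell, root and flower markers, only 3 had a named probe set past the limit. RCA, the activase of Rubisco and a marker of leaf mesophyll, had signals of 14995 to 17006 in flu and 18435 to 20957 in Ler. FAMA, of guard cells, had 228 to 363 in flu and 269 to 329 in Ler, and PYK10, of roots, had 293 to 481 in flu and 141 to 257 in Ler. No probe set carried the name of FLU, so the mutated gene is not reported here.

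Of all probe sets past the limit, 971 (7.43%) were at least 2-fold higher at 2 h than at 30 min in flu and 175 (1.34%) in Ler. The 62 members, 0.475% of all past the limit, made up 6.39% of the flu list and 35.4% of the Ler list. In the other direction 41 probe sets were at least 2-fold lower at 2 h in both genotypes. A further 27 were higher at 2 h in flu and lower in Ler by that limit, and 7 were lower in flu and higher in Ler. The 909 probe sets that met the limit in flu alone had a median change of -0.01 in Ler, and the 113 that met it in Ler alone had a median change of 0.14 in flu.

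**Figure D1:**
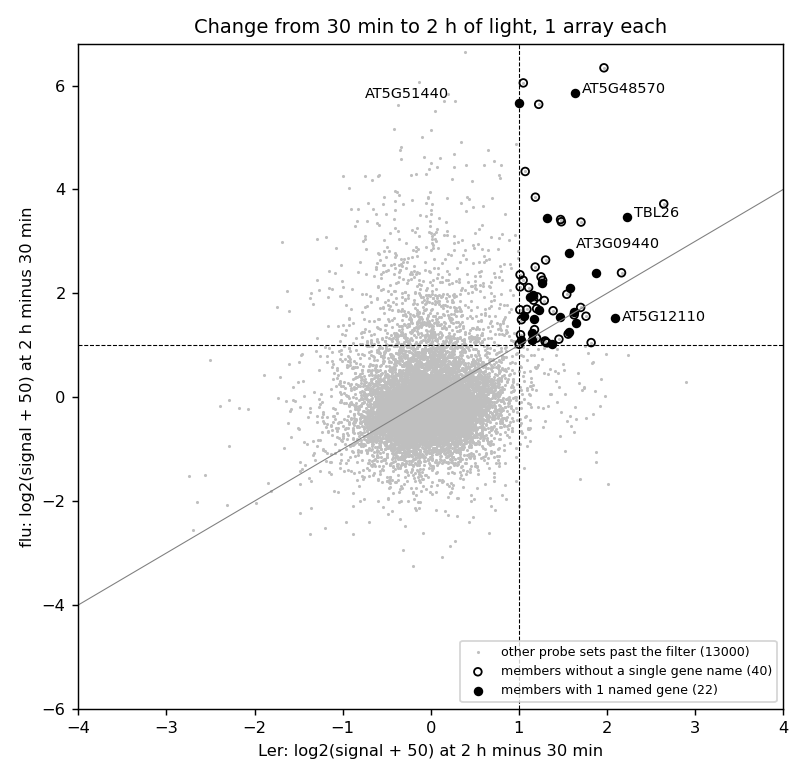
Change in log2(signal + 50) from 30 min to 2 h of light for every probe set past the signal limit, with Ler on the horizontal and flu on the vertical axis, 1 array per genotype and time. Filled circles are the 22 members with 1 named gene, open circles the other 40, the dashed lines mark the limit of 1, and the grey line marks equal changes. Most members lie above that line, and 5 reach a change of 5 or more in flu.

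Among the members the increases differed in size more in flu than in Ler. The change from 30 min to 2 h ran from 1.02 to 6.34 in flu with a median of 1.86, and from 1.00 to 2.64 in Ler with a median of 1.28. It was larger in flu for 48 members and larger in Ler for 14. For 26 members the changes of the genotypes lay within 0.5 of each other, and for 8 the flu change exceeded the Ler change by 2 or more. A change of 2 or more was reached by 26 members in flu, by 4 in Ler, and by 3 in both. These 3 were TBL26 and 2 probe sets without a gene name, 262113_at and 262883_at. All counts in this comparison use the arrays of the rule, and the share of all probe sets was not counted, so they are a description. Over all probe sets past the limit, a change of 1 or more was also more frequent in flu (7.43%) than in Ler (1.34%).

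Many members were dim at the start. At 30 min 25 of the 62 had signals below the limit in both genotypes, and 29 were above it on all 6 arrays. In 10, the limit was reached in 1 genotype and at none of the 3 times in the other. Folds of the dim members are compressed by the offset, and MAS5 signals at that level are noisy. By their suffix, 8 members are probe sets that match more than 1 transcript.

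Of the named members, 4 are chaperone genes, and they held the 2 largest flu increases. AT5G48570, known elsewhere as FKBP65 or ROF2, encodes a peptidyl-prolyl isomerase that binds Hsp90 and helps proteins fold under heat. In order of time its signals were 47.2, 843 and 5577 in flu, against 45.2, 99.5 and 247 in Ler. The genotypes started level and the flu value was far above the Ler value at both later times. On the log2(signal + 50) scale the increase to 2 h was 57.9-fold in flu and 3.11-fold in Ler, both from dim starting values.

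AT5G51440 encodes a small heat shock protein of mitochondria, of the class that holds unfolding proteins in solution. Its signals at the 3 times were 43.9, 724 and 4711 in flu, against 16.3, 112 and 82.8 in Ler. All 3 Ler signals were below the signal limit, and the Ler change of 1.00 placed this gene at the edge of the rule, while the flu change was 5.66. AT2G20560 encodes a DnaJ-type co-chaperone, which hands client proteins to Hsp70. Its signals were 164, 784 and 2295 in flu, against 41.7, 109 and 178 in Ler, so that flu was higher at each time and no Ler signal reached the signal limit. The increase to 2 h was 11.0-fold in flu and 2.49-fold in Ler.

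AT3G09440 encodes a cytosolic Hsp70, the chaperone that takes over clients from such co-chaperones, and it was above the signal limit on all arrays. Its signals were 1859, 5304 and 13050 in flu, against 2090, 4116 and 6299 in Ler. The genotypes were close at 30 min, and flu minus Ler was 0.36 at 60 min and 1.04 at 2 h. The increase was 6.86-fold in flu and 2.97-fold in Ler. Of the list of heat shock and chaperone genes chosen for this report, none of the 9 entries had a named probe set, so the group rests on these 4 genes.

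A pair of cell wall genes were members and gained most of their flu increase after 60 min. TBL26, of the trichome birefringence-like family that acetylates wall polymers, had signals of 251, 510 and 3270 in flu at the 3 times and of 376, 1941 and 1944 in Ler. Ler was at its 2 h level by 60 min, while in flu most of the increase lay after 60 min. The increase to 2 h was 11.0-fold in flu and 4.68-fold in Ler, the largest Ler increase among the named members. CSLA01, of the glucomannan synthase family, had signals of 71.0, 66.0 and 508 in flu and of 79.5, 134 and 261 in Ler. Its flu signal at 60 min was no higher than at 30 min, and flu passed Ler only at 2 h.

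Flavonoid synthesis makes pigments that screen light, and 2 of the members belong to it. AT1G06000 encodes a glycosyltransferase that adds rhamnose to flavonols. Its signals were 160 at 30 min, 300 at 60 min and 1054 at 2 h in flu, against 168, 525 and 754 in Ler. Flu was below Ler at 60 min and above it at 2 h, and the increase was 5.25-fold in flu and 3.68-fold in Ler. DFR, dihydroflavonol 4-reductase of anthocyanin synthesis, had signals of 78.3, 124 and 225 in flu and of 147, 139 and 385 in Ler. Flu was below Ler at all 3 times, and the changes to 2 h were alike, 1.099 in flu and 1.145 in Ler. In Ler the whole increase of DFR lay after 60 min. DFR was also the only entry of the 13-gene flavonoid list with a named probe set.

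A further gene of this pathway lay just outside the rule. CHIL, a chalcone isomerase-like protein that aids the entry step of flavonoid synthesis, narrowly missed the limit in flu. Its changes were 0.997 in flu and 1.39 in Ler, with signals of 51.4, 57.5 and 152 in flu and of 95.6, 166 and 333 in Ler.

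Transporters of sugars and defence compounds formed a further group. SWEET13, a sugar exporter that loads sucrose for transport out of the leaf, had signals of 176, 267 and 481 in flu and of 307, 449 and 740 in Ler. The genotypes ran in parallel, with flu below Ler by -0.66, -0.66 and -0.57 at the 3 times and increases of 2.35-fold in flu and 2.22-fold in Ler. GTR1, an importer of glucosinolates, which are sulphur-containing defence compounds, had signals of 1218, 2233 and 4925 in flu and of 672, 1054 and 1559 in Ler. Here flu was above Ler at each time, by 0.81, 1.05 and 1.63. AT5G44050, of the MATE family of efflux carriers, had signals of 128, 149 and 469 in flu and of 105, 187 and 378 in Ler, and the genotypes stayed within 0.28 of each other at all 3 times.

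GI, a component of the circadian clock and of the daylength control of flowering, reached its level early. Its signals were 150, 606 and 716 in flu, against 282, 813 and 675 in Ler. In Ler the 60 min signal exceeded that of 2 h, and in flu 88.5% of the log2 increase lay before 60 min, the largest such share in flu among the 62 members. Flu started below Ler by -0.73 and ended 0.08 above it. GI was the only entry of the 16-gene clock list with a named probe set.

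Genes of redox repair and plastid metabolism were members with modest increases. MSRB6, a methionine sulfoxide reductase that repairs oxidised proteins, had signals of 126, 87.2 and 500 in flu and of 180, 316 and 656 in Ler. Flu was lower at 60 min than at 30 min while Ler was higher, and flu minus Ler at 60 min was -1.41. The increase to 2 h was nearly equal, 3.13-fold in flu and 3.07-fold in Ler. SUFE2, of the SufE proteins that supply sulphur for iron-sulphur clusters, had signals of 99.3, 188 and 270 in flu and of 27.0, 40.4 and 106 in Ler. Flu was higher at each time, and none of the Ler signals reached the signal limit.

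In protein synthesis, AT5G12110 encodes a subunit of translation elongation factor 1 and had the largest excess of the Ler over the flu increase among the named members. Its signals were 169, 491 and 580 in flu, against 102, 421 and 598 in Ler. The genotypes differed at 30 min by 0.52 and had converged by 2 h at -0.04. The increase was 2.88-fold in flu and 4.25-fold in Ler. AT5G01380, a trihelix DNA-binding factor, had signals of 53.5, 149 and 256 in flu and of 2.1, 26.0 and 58.8 in Ler. All 3 Ler signals lay far below the signal limit, so its fold in Ler is set largely by the offset.

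The other 6 named members had mixed courses. AT1G52000, of the jacalin-type lectins, had signals of 234, 287 and 1169 in flu and of 141, 251 and 519 in Ler, with flu higher throughout. AT1G06260, a papain-type cysteine protease, had 47.2, 13.1 and 260 in flu, against 19.0, 37.3 and 112 in Ler, and AT1G75300, of the isoflavone reductase family, had 47.3, 42.8 and 224 in flu, against 18.4, 122 and 104 in Ler. Both were dim, and both were lower at 60 min than at 30 min in flu.

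AT4G19430 had signals of 230, 255 and 614 in flu and of 213, 839 and 733 in Ler. It was level between genotypes at 30 min and stood 2.92-fold lower in flu at 60 min. AT3G28220, of the TRAF-like family, had 238, 242 and 532 in flu, against 233, 385 and 684 in Ler, with a change of 0.02 from 30 to 60 min in flu, against 0.62 in Ler. AT3G28270 had 81.8, 188 and 303 in flu, against 89.5, 183 and 386 in Ler, and the genotypes overlapped closely at the earlier times. Over the 22 named members the increases lay between 2.02-fold and 57.9-fold in flu and between 2.00-fold and 4.68-fold in Ler.

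**Figure D2:**
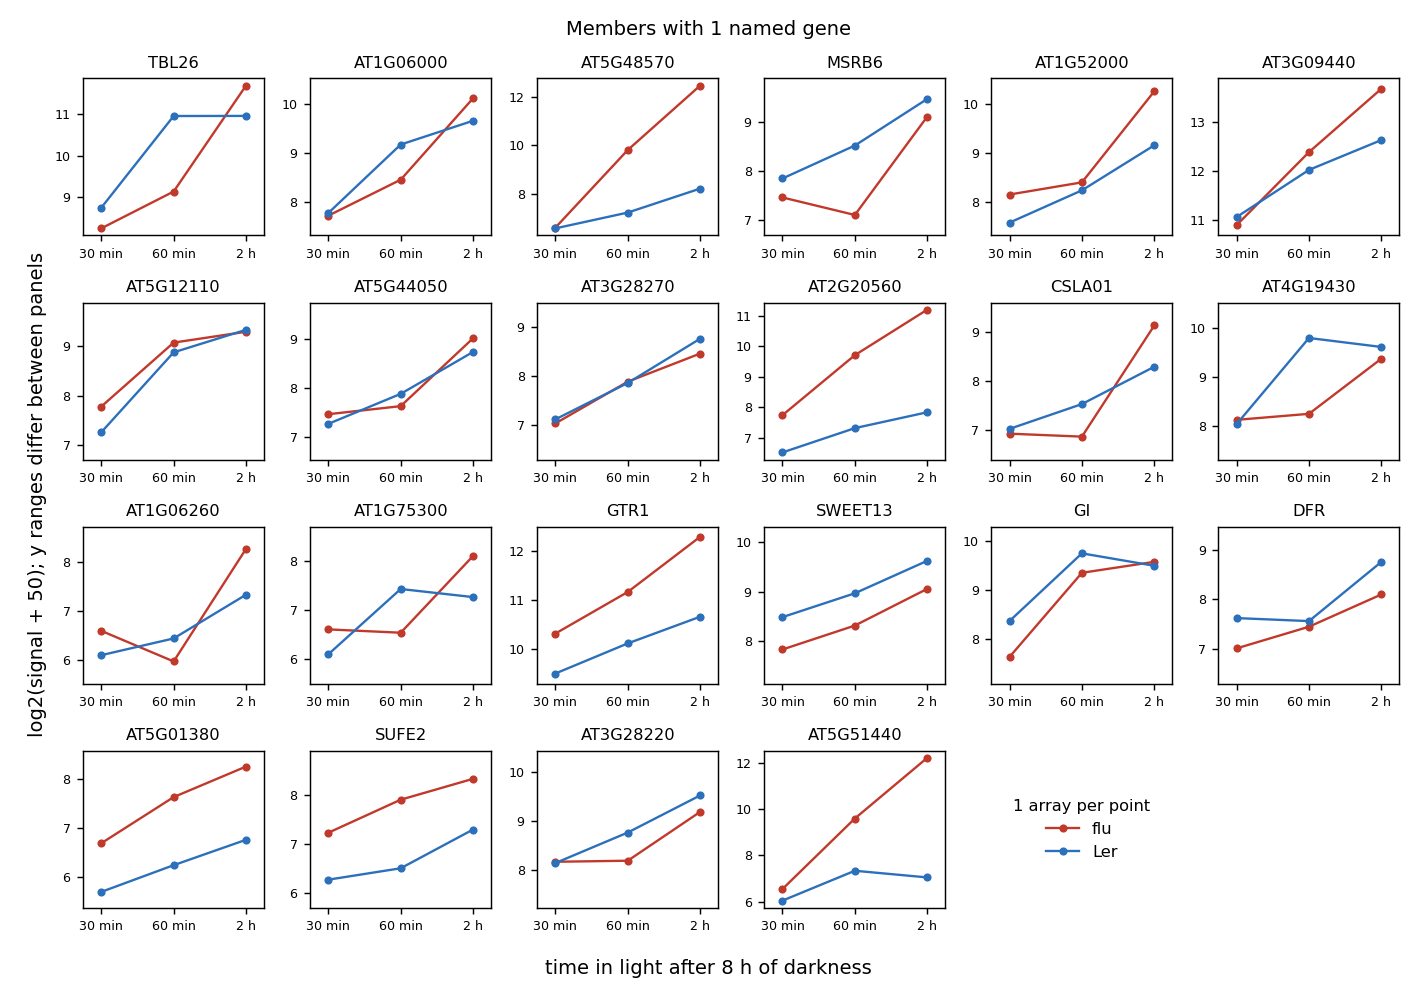
The 22 members with 1 named gene, each panel showing log2(signal + 50) on the vertical axis against time in light, in order of the smaller of the changes, with flu in red and Ler in blue and 1 array per point. The vertical ranges differ between panels. AT5G48570, AT2G20560 and AT5G51440 open a wide gap between genotypes, while TBL26, AT4G19430, AT1G75300 and MSRB6 stand lower in flu than in Ler at 60 min.

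Members without a gene name held the extremes in both genotypes. Probe set 262113_at, with the largest Ler increase of all 62, had signals of 181, 851 and 3004 in flu and of 436, 2001 and 2987 in Ler. Flu minus Ler was -1.07 at 30 min and 0.01 at 2 h. Probe set 256245_at, with the largest flu increase, had 61.2, 2326 and 8967 in flu, against 27.8, 117 and 254 in Ler. Together with AT5G48570 and AT5G51440 it was among the 5 members whose flu change was 5 or more, and none of these 5 reached the signal limit in either genotype at 30 min.

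The 60 min arrays entered the rule only through the signal limit, and they show when the increase took place. The share of the log2 increase that lay before 60 min had a median of 39.3% in flu and 53.9% in Ler. It was larger in Ler for 48 members and larger in flu for 14. The share ran from -37.3% for AT1G06260 to 88.5% for GI in flu, and from -17.7%, for a probe set of several genes, to 129% for AT5G51440 in Ler. A value over 100% means that 60 min exceeded 2 h. The same medians were 37.7% for the probe sets that met the limit in flu alone and 50.4% for those that met it in Ler alone, so the order of the genotypes was not particular to the members. The share uses the arrays that chose the members, so it is a description.

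**Figure D3:**
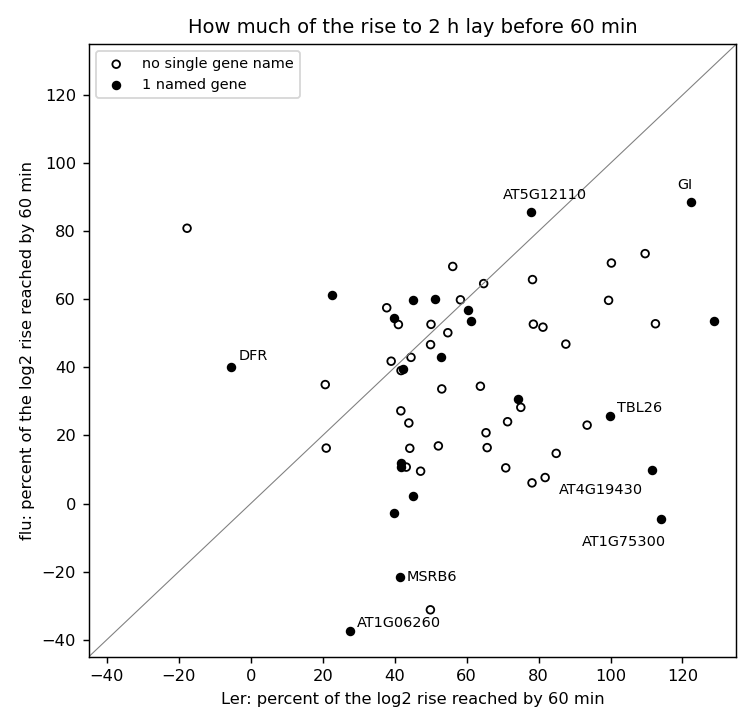
Percent of the log2 increase from 30 min to 2 h that was reached by 60 min, for each of the 62 members, with Ler on the horizontal and flu on the vertical axis. Filled circles are members with 1 named gene, and the grey line marks equal shares. Most points lie below the line, with AT1G75300 and AT4G19430 farthest below it among the named genes, and DFR lies above the line.

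By step, the median change of the members was 0.72 in flu and 0.75 in Ler from 30 to 60 min, against medians over all probe sets past the limit of -0.07 in flu and -0.03 in Ler. From 60 min to 2 h it was 1.16 in flu and 0.57 in Ler, against -0.11 in flu and 0.00 in Ler over all. At least 2-fold was gained by 60 min by 20 members in flu, where 2.75% of all did so, and by 18 in Ler, where 0.727% of all did so. From 60 min to 2 h the counts were 38 in flu (4.38% of all) and 2 in Ler (0.398% of all). The step from 60 min to 2 h was larger in flu for 54 of the 62 members, where 40.9% of all had a larger step in flu. Both steps were upward for 57 members in flu, 53 in Ler and 49 in both, where 16.9%, 19.6% and 4.19% of all were. The rule fixes the sum of the steps, so nothing is read from these counts. With the 60 min array in place of the 30 min array of flu, which had the low added controls, 43 probe sets met the limit, of which 38 were members.

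Flu and Ler were also compared at 60 min, a contrast that entered the choice of members only through the signal limit. Of the 62 members, 12 were at least 2-fold higher and 8 at least 2-fold lower in flu, against 6.12% and 1.44% of all probe sets past the limit. Named among the higher were AT5G48570 (2.58), AT2G20560 (2.39), AT5G51440 (2.26), SUFE2 (1.40), AT5G01380 (1.39) and GTR1 (1.05), in units of log2(signal + 50). Named among the lower were TBL26 (-1.83), AT4G19430 (-1.55) and MSRB6 (-1.41). The median of the members was -0.12, beside -0.08 over all, while single members lay far to either side. Of the 12 higher members, 5 reached the signal limit in flu only and so had to be higher there at some time, among them AT2G20560, AT5G51440, SUFE2 and AT5G01380. None of the 8 lower members reached it in Ler only. Among the 52 members that reached the limit in each genotype, 7 were higher (4.54% of all such probe sets) and 8 lower (1.39%). With 1 array per genotype these differences have no test.

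At 30 min 2 members were at least 2-fold higher in flu (2.98% of all) and 5 lower (0.421% of all), with a median of 0.06. At 2 h 19 were higher (10.1% of all) and 0 lower (5.51% of all), with a median of 0.58 beside -0.20 over all. Both times were used by the rule, so these counts are read no further. Flu was below Ler at 60 min and above it at 2 h for 20 members, TBL26 and AT1G06000 among them. It was above at all 3 times for 22 and below at all 3 times for 9, DFR, MSRB6 and SWEET13 among these 9. These orders also use the arrays of the rule, and the share of all probe sets was not counted, so they are a description.

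**Figure D4:**
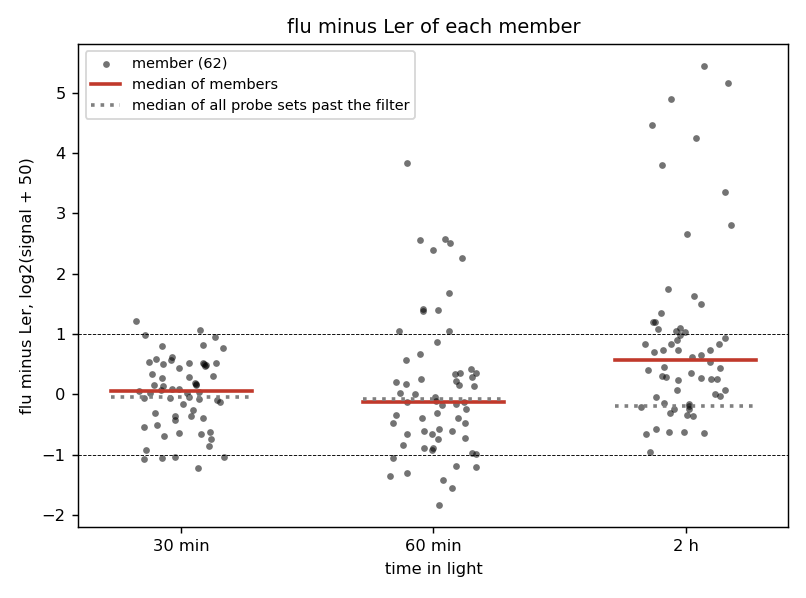
Difference between flu and Ler in log2(signal + 50) for each of the 62 members at the 3 times, with red bars at the median of the members and dotted bars at the median of all probe sets past the signal limit. Points are spread sideways for legibility, and dashed lines mark 2-fold. The spread widens with time, and at 2 h no member lies below the lower dashed line.

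The difference across the 3 times was tested with limma on all 13062 probe sets, with time and genotype as additive terms. In this fit 2 members were higher in flu at an adjusted p under 0.05, where 2.87% of all probe sets were, and 1 was lower, where 0.375% were. The count of higher members is thus near the background. GTR1 was higher by 1.16 (SE 0.20, adjusted p = 0.0383, limma, higher at 3 of 3 times). AT2G20560 stood at 2.32 (SE 0.39, adjusted p = 0.0342, limma, higher at 3 of 3 times), but it passed the signal limit only through flu, so its call is no independent support for a difference. With only probe sets that reached the limit in each genotype in the fit, 1 member was higher (2.2% of all), which was GTR1 (adjusted p = 0.0408, limma), and 1 lower (0.282% of all). In the fit on all 13062 probe sets the lower member was the unnamed 252123_at at -0.96 (SE 0.15, adjusted p = 0.0261, limma, lower at 3 of 3 times). It measured 244, 441 and 832 in flu and 506, 927 and 1667 in Ler. Before adjustment 16 members were higher and 8 lower by the same threshold, and 11 higher and 8 lower with the signal limit reached in each genotype. The share of all probe sets before adjustment was not counted, so nothing is read from these counts.

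A difference that grows with time counts as residual in this fit. AT5G48570 stood at 2.28 (SE 0.71, adjusted p = 0.160, limma) and AT5G51440 at 2.64 (SE 0.79, adjusted p = 0.151, limma), and neither passed. The differences of AT2G20560 (1.22, 2.39 and 3.36 at the 3 times) and GTR1 (0.81, 1.05 and 1.63) also grew with time, and both passed. SWEET13, whose difference did not grow with time, stood at -0.63 (SE 0.15, adjusted p = 0.0913, limma) and did not pass either. Without the arrays of 60 min AT2G20560 and GTR1 had adjusted p = 0.266 and 0.324 (limma) at differences of 2.29 and 1.22, and 0 members passed. Without those of 30 min 9 members were higher and 0 lower, and without those of 2 h 3 were higher and 8 lower. Each of these fits used fewer arrays and so had fewer residual degrees of freedom. The share of all probe sets called was not counted for them, so these counts are read no further. The residual also holds the difference between the changes that the rule limits from below, so the p-values are not wholly independent of the choice of members.

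Genes of light-related pathways were set beside the members through 15 lists. Of their 180 entries, 28 had a named probe set past the limit. Of these 28, 2 were members, DFR and GI, which the rule had chosen for an increase in both genotypes. At 2 h against 30 min, 3 of the 28 were at least 2-fold higher and 3 lower in flu, where 7.43% and 4.63% of all were. In Ler 3 were higher and 0 lower, where 1.34% and 1.40% of all were. The counts of higher genes hold DFR and GI by choice, so nothing is read from them. The 3 higher in flu were DFR, GI and HYH, a bZIP factor of light signalling, and the 3 higher in Ler were DFR, GI and APL3, a large subunit of the enzyme that starts starch synthesis. HYH had changes of 1.20 in flu and -0.05 in Ler, and APL3 of 0.54 in flu and 1.36 in Ler.

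The 8 tested tetrapyrrole genes had a median change of -0.51 in flu and -0.15 in Ler, and the 6 genes of the antenna, photosystems and carbon fixation had -0.24 in flu and 0.17 in Ler. None of these 14 met the limit for an increase in either genotype, and PORB, protochlorophyllide oxidoreductase B, was lower at 2 h in flu (-1.001) and had -0.19 in Ler. HEMA2, a glutamyl-tRNA reductase at the start of the pathway, ran the other way, with 0.99 in flu, just under the limit, and -0.72 in Ler, where all its signals were below the signal limit. The growth genes EXPA8, an expansin that loosens cell walls, and IAA29, a repressor of auxin responses, were lower at 2 h in flu, at -2.62 and -1.40, with -0.08 and -0.22 in Ler. IAA29 reached the signal limit only in flu at 30 min, and all its Ler signals were below it. In the fit of flu against Ler across the times, 2 of the 28 were higher in flu and 0 lower, where 2.87% and 0.375% of all were. Both were of the list of protein folding in the endoplasmic reticulum, which had 3 tested entries. They were the bZIP factors BZIP60 (2.24, SE 0.27, adjusted p = 0.0106, limma) and BZIP28 (1.17, SE 0.17, adjusted p = 0.0199, limma), neither of which was a member. The lists were chosen with earlier results of these data known, so these calls are no independent result about the list.

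At the edge of the rule, the members with the smallest qualifying change were AT5G51440 (1.00 in Ler), and the unnamed probe sets 263714_at (1.02 in flu and 1.00 in Ler) and 266326_at (1.01 in Ler). Just outside, after CHIL, the nearest with 1 named gene were AT1G10585, with 4.87 in flu and 0.97 in Ler, and AT2G31790, with 0.96 in both. Cpn60beta2, a subunit of the plastid chaperonin, followed with 0.93 in flu and 1.21 in Ler.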

How the data were processed

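The authors deposited 1 table of MAS5 signals, that is linear intensity values for each probe set, for 6 ATH1 arrays. The software is named in the submitters' processing notes, and its version is not given in the sources used here. The 2% trimmed mean was 500.0 on every array, so the authors had scaled the arrays before deposit. MAS5 takes off the signal of mismatch probes, so dim values are noisy, and detection calls were not used.

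The signal limit was 185. Signals were used as deposited and put on the scale log2(signal + 50). Groups came from the sample titles. The 64 control probe sets were left out. Gene names came from the platform annotation and a RefSeq table of TAIR10.1, used for names only: 13513 of 22810 probe sets had 1 gene, of which 13436 matched RefSeq. No build is named in the files, so coordinates are left out, and promoter sequences were not analysed here. The members, the lists and the rule for named genes were chosen with earlier results of these data known. All 22 members with 1 gene were named. Probe sets without a gene were named where they held an extreme, a call or the edge of the rule, after their values were seen, as was HEMA2.

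Flu and Ler were compared with limma 3.58.1 in R 4.3.3 (lmFit, eBayes with a variance trend, 2 residual and 4.18 prior degrees of freedom, Benjamini-Hochberg over all 13062 probe sets, threshold 0.05), after a test on simulated data. The p-values rest on how the difference varied over the 3 times, since no time has replicates. Alternatives were offsets of 16 and 100, quantile normalization, rescaling, other signal limits, the limit in each genotype (added after seeing the data), a stricter change of 1.5, no variance trend and each time left out. Tables and plots used Python 3.11.15, pandas 2.3.3, numpy 2.4.6 and matplotlib 3.10.9.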

Additional observations from a re-analysis of the deposited data

Results flagged for a closer look

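For the genes below, the changes of flu and Ler over the same interval differed in sign, each on 1 array per time, and the differences were not tested. Some of these changes were very small, such as -0.06 for CSLA01 in flu from 30 to 60 min. Values are the flu change minus the Ler change in log2(signal + 50).

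Among the members, the changes from 30 to 60 min differed in sign for 5 named genes. The difference was -1.03 for MSRB6 (-0.36 in flu, 0.67 in Ler), -0.57 for CSLA01, -0.96 for AT1G06260 and -1.40 for AT1G75300, all lower at 60 min than at 30 min in flu. For DFR it was 0.50, with the lower 60 min value in Ler (-0.06). From 60 min to 2 h the signs differed for 4, each higher at 2 h in flu and lower in Ler. The difference was 1.31 for AT4G19430, 1.73 for AT1G75300, 0.48 for GI and 2.91 for AT5G51440 (2.62 in flu, -0.29 in Ler).

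Among list genes that were no members, the changes from 30 min to 2 h differed in sign for 9 of those named by the rule. The difference was 1.25 for HYH, 1.33 for BZIP60 and 1.37 for GH3.3, an auxin-conjugating enzyme, all higher at 2 h in flu. It was -0.71 for HEME1, -0.40 for PSBW, -0.85 for LYC, -0.54 for ATG8E, -0.37 for SIR and -1.27 for LHCB4.3, all lower at 2 h in flu. The flu changes of PSBW (-0.05) and SIR (-0.08) and the Ler change of HYH (-0.05) were very small. HYH was higher at 60 min than at 30 min in both genotypes, by 0.75 in flu and 0.64 in Ler.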

How the results depend on the processing

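The number of members depended on the size limit and the offset. It was 90 when the offset was 16, 37 when it was 100, 66 after quantile normalization, 62 after rescaling, 64 without a signal limit, 45 with a limit at the 75th percentile of all values (590) and 15 with a change of 1.5 or more. Of the 62, 33 remained members under all 6 alternatives of offset, scaling and signal limit. Chosen after seeing the data, taking both changes from 60 min gave 5 probe sets, of which 0 were members. In the limma fit, the count of members higher in flu was 2, against 1 with an offset of 100, 0 without a signal limit (17 at an unadjusted p under 0.05), 1 with the stricter limit, 9 without the arrays of 30 min and 0 without those of 60 min (9 unadjusted). The count lower was 1, against 0 without the arrays of 30 min (8 unadjusted), 0 without those of 60 min (3 unadjusted) and 8 without those of 2 h. The causes were not tested. For these alternatives, and for unadjusted p-values, the share of all probe sets was not counted, so the counts are read no further. AT2G20560 also missed the threshold with an offset of 100 (adjusted p = 0.0600, limma), without a signal limit (0.0770), with the stricter one (0.0530) and without the variance trend (0.0582), and GTR1 without a signal limit (0.0617) and without the trend (0.0641). Over the alternatives that kept them adjusted p ran from 0.00115 to 0.266 for AT2G20560 and from 0.00806 to 0.324 for GTR1. The mean difference changed sign for 5 named members that did not pass. These were TBL26 (0.12) and AT1G06000 (0.20) without the arrays of 60 min, AT5G44050 (-0.027) without those of 2 h, CSLA01 with an offset of 16 (-0.029) and without those of 2 h (-0.38), and AT1G75300 without those of 30 min (-0.026) and of 2 h (-0.19). Requiring the signal limit in each genotype, chosen after seeing the data, gave 7 members higher in flu at 60 min against 12, and 1 member higher in the limma fit (11 unadjusted), with AT2G20560 left out by construction. The other counts and medians at 60 min stayed within 1.5 times their values under the alternatives run for them. The fit sets flu against Ler at each time. No fit with a replicate number as a block was made, since the labels carry none. Signals near background limit the dim members.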
